A study of Mus musculus with 12 samples.

Results

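The genes described are 9 that build or anchor the tight junction, chosen by symbol: the claudins Cldn2, Cldn3, Cldn4, Cldn7, Cldn15 and Cldn23, the MARVEL protein gene Ocln, and the scaffold genes Tjp1 and Tjp3. All 9 were found among the 55335 entries of both count tables, and all 9 passed the filter on low counts in both. Bulk RNA sequencing covered 12 libraries, 4 groups of 3, from organoids of the mouse small intestine. The organoids came from a female Lgr5GFPDTR/+ mouse (line26), so all groups carry the same allele, a reporter with a diphtheria toxin receptor at the Lgr5 locus, and all libraries derive from 1 line. ENR control organoids were harvested at day 6 in ENR medium, the standard medium with EGF, Noggin and R-spondin. RANKL organoids received 100 ng/mL RANKL, the cytokine that induces M cells, for 6 days. Before RANKL they had been given 3 µM CHIR99021, an inhibitor of glycogen synthase kinase, together with 1.5 mM valproic acid, an inhibitor of histone deacetylases, for 3 days, and then ENR medium for 1 day. RANKL II organoids were treated as the RANKL group and belong to the CSRM617 experiments. RANKL+CSRM617 organoids received in addition 40 µM CSRM617, a compound that blocks ONECUT2, a transcription factor of the cut homeobox family. The control sample names begin with CVENR, a prefix that no label explains, so whether the controls had also seen CHIR99021 and valproic acid is not stated. Replicates are described as separate differentiation experiments and not as separate animals, so the p-values below cover at most the spread between cultures of 1 line. In the second comparison several replicates differed little more than counting error, as described there.

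Tight junctions close the space between neighbouring epithelial cells and set which ions and how much water may pass between them. Claudins form the strands, and their mix decides the selectivity: some members seal, others form paracellular channels for cations. Occludin sits in the same strands, and the zonula occludens proteins encoded by the Tjp genes tie the strands to actin. In the small intestine the mix differs between crypt and villus, with claudin 2 typical of crypts, and the epithelium over lymphoid follicles, where M cells lie, has a claudin make-up of its own.

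The promoters of 3 members are shown because their RNAs carry the main results: Cldn2 fell in both comparisons, and the single-exon genes Cldn3 and Cldn4 lie 39279 bases apart on chromosome 5 yet changed differently. The 250 bases upstream of each RefSeq start (GRCm38.p6) are chrX:139800558-139800807 on the plus strand for Cldn2, chr5:134985964-134986213 on the plus strand for Cldn3 and chr5:134946935-134947184 on the minus strand for Cldn4. In the first sequence capitals mark the matches to the motifs named below, and in the other two they mark CpG dinucleotides.
Cldn2: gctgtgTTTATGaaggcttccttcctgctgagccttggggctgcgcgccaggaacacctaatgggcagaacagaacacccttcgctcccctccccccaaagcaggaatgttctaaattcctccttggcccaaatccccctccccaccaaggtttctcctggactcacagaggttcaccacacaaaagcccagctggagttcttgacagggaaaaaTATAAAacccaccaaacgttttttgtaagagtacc
Cldn3: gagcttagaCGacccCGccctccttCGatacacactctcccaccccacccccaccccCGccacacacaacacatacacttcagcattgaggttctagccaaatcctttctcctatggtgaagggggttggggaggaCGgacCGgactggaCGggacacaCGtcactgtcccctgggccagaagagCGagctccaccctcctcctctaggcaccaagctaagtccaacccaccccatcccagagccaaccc
Cldn4: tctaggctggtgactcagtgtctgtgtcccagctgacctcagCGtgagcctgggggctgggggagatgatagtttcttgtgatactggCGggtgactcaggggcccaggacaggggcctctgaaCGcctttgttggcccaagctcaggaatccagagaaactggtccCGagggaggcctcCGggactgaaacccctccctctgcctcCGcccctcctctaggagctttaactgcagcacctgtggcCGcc
A promoter was present in RefSeq for 8 of the 9 genes, all but Cldn23. The Cldn2 window held TATAAA from base -35 to -30 and TTTATG, a core sequence of CDX factors, from -244 to -239, counted back from the RefSeq start, which is not a GENCODE M21 transcript start and lies upstream of the annotated gene. Of 32851 RefSeq windows of this length, 12.4% held TATAAA and 10.8% TTTATG on either strand. The Cldn2 window had 4 CpG dinucleotides and a GC content of 52%, against 9 and 60.8% for Cldn3 and 7 and 62% for Cldn4, and medians of 6 and 52.4% over all windows. Also searched, on both strands and with no overlaps among the matches found, were ATCAAT and ATCGAT (ONECUT cores, in 6.72% and 0.728% of windows), GTTAAT (an HNF1 half-site, 6.43%), AACNNGTT (a GRHL core, 3.64%) and the NF-kB consensus (7.25%). None of these letters occurred in the windows of the 8 genes, which says only that they are absent from these 250 bases.

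In GRCm38 with the GENCODE M21 annotation, Cldn2 lies at chrX:139800828-139811386 (2 exons in its longest transcript, counted likewise below), Cldn3 at chr5:134986214-134987472 and Cldn4 at chr5:134945119-134946934 (1 exon each), Cldn15 at chr5:136966616-136975858 (6 exons) and Cldn7 at chr11:69964779-69967885 (4 exons). Cldn23 lies at chr8:35824712-35826559 (1 exon), Ocln at chr13:100496507-100552718 (9 exons), Tjp1 at chr7:65296165-65527781 (28 exons) and Tjp3 at chr10:81273207-81291581 (21 exons). All 9 are annotated as protein-coding, and counts were taken per gene.

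ENR control libraries held 5795541 to 7577492 counts and RANKL libraries 6351155 to 7719157. The second table was deeper, with 8669153 to 11241811 counts in RANKL II and 10225102 to 14041947 with CSRM617. The 9 genes together took 5832 to 14387 counts per library, and Cldn23, the scarcest, took 25 to 105. Levels are CPM, counts scaled to a common library size with TMM factors, and log2 changes come from edgeR on the raw counts with its standard error (SE). Each comparison was fitted within its own table over all genes and adjusted by Benjamini-Hochberg with a threshold of 0.05. Log2 changes over all genes went with transcript GC content (Spearman -0.32 over 13404 genes for RANKL against ENR control and 0.59 over 13986 genes for RANKL+CSRM617 against RANKL II). The ribosomal RNA loci Gm26917 and Gm42418 took 21.9% to 35.5% of each ENR control library and 9.71% to 10.7% of each RANKL library. They took 6.44% to 6.71% of the RANKL II libraries and 15.3% to 15.8% of those with CSRM617. Because the 9 transcripts run from 42% GC (Ocln) to 62.8% (Cldn3), each change is also given from a fit with GC offsets, in which a smooth function of GC content was removed per library; the part of GC content in each change was not tested otherwise. The 8 epithelial markers summed to 3688 to 5881 CPM per library, while 8 immune markers summed to 5.71 to 20.7 CPM and 10 stromal and endothelial markers to 1.339 to 3.87 CPM, with Adgre1, Cdh5, Kdr, Col1a2 and Col3a1 at 0 counts in all 12 libraries.

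The first comparison asked how the junction genes differed between RANKL organoids and ENR control. The RANKL organoids had also been given CHIR99021 and valproic acid, and whether the controls had is not stated. The parts of RANKL and of that earlier treatment therefore cannot be told apart here. Below, "with RANKL" means in the RANKL group. Of the 9 genes, 3 rose (Cldn4, Tjp1 and Cldn23), 3 fell (Cldn2, Cldn15 and Tjp3) and 3 did not pass (Cldn3, Cldn7 and Ocln). Over all 13570 genes tested, 56.7% passed, 28.7% rising and 28.0% falling, so the number that passed among these 9 lay near the background. The median log2 change of the 9 was -0.08, against 0.00 over all genes. With GC offsets 4 of the 9 rose and 3 fell, beside 54.7% of all genes that passed, 24.5% higher and 30.2% lower. The changes of Cldn2, Cldn4 and Cldn15 were at least 2-fold. In 4 of the 9 genes the groups did not overlap, as was the case for 63.3% of all genes. ENR control replicate 2 stood apart from the other control libraries. Chi-square per degree of freedom, 1 for counting error alone, was 16.5 and 33.2 in its pairs and 5.49 between replicates 1 and 3. Its ribosomal RNA loci took 21.9% of counts, against 31.0% and 35.5%.

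Cldn2 encodes a channel for cations and water. It stood at 241, 308 and 248 CPM in the ENR control libraries and at 63.5, 70.8 and 69.5 CPM in the RANKL libraries. The groups were far apart, with the lowest control library over 3 times the highest RANKL library. The log2 change was -1.97 (SE 0.101, edgeR adjusted p = 2.29e-10), a 3.92-fold lower level, and it was -1.99 with GC offsets. In such bulk RNA, fewer cells that express a gene and less RNA per cell cannot be told apart. The summed level of 6 crypt stem cell markers went down beside it, from 2234 to 2580 CPM in control libraries to 714 to 1054 CPM with RANKL. Of the 6, 4 fell and 1 rose by the edgeR test, and their part in the result was not tested.

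Cldn15 encodes the main sodium-permeable claudin of the small intestine. Control libraries held 199, 180 and 184 CPM and RANKL libraries 87.4, 93.2 and 82.5 CPM, with no overlap. It fell by 1.10 on the log2 scale (SE 0.0835, edgeR adjusted p = 2.25e-08), or to 46.8% of the control level, and by 1.01 with GC offsets. The RNAs of both channel-forming claudins were thus lower with RANKL, Cldn2 more so: counts of Cldn2 per count of Cldn15 went from 1.21, 1.71 and 1.35 in control libraries to 0.727, 0.759 and 0.842.

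Cldn4, a barrier claudin, moved the other way. It stood at 36.5, 32.7 and 33.6 CPM in control libraries and at 77.4, 83.8 and 68.3 CPM with RANKL. Every RANKL library exceeded every control library. The log2 change was 1.16 (SE 0.102, edgeR adjusted p = 1.20e-07), and 1.29 with GC offsets. The 10 M cell markers summed to 59.2 to 64.8 CPM in control libraries and to 1036 to 1113 CPM with RANKL. Gp2, Sox8 and Tnfrsf11b were at 0 counts in control. The 8 enterocyte markers went from 852 to 1001 CPM to 2326 to 3256 CPM, with 4 higher and 4 lower by the edgeR test. The 7 goblet cell markers went from 1114 to 1166 CPM to 1958 to 2818 CPM, with 3 higher and 3 lower. The 6 Paneth cell markers went from 523 to 891 CPM to 370 to 386 CPM, with 1 higher and 5 lower. The part of any of these cell types in the rise of Cldn4 was not tested.

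Cldn3, the sealing claudin encoded next to Cldn4, was at 140, 119 and 132 CPM in control libraries and 116, 133 and 120 CPM with RANKL. The groups overlapped, and the log2 change of -0.08 (SE 0.0882) did not pass (edgeR adjusted p = 0.467). With GC offsets the change was 0.27 and passed (SE 0.0796, edgeR adjusted p = 0.00739), so its direction depends on that choice. Cldn7, a claudin of the lateral membrane that binds EpCAM, was at 152, 189 and 152 CPM against 152, 154 and 145 CPM, and its change of -0.13 did not pass (SE 0.0928, edgeR adjusted p = 0.251). With GC offsets the change of Cldn7 was -0.01 (edgeR adjusted p = 0.959). Epcam itself was at 490 ± 51.1 and 552 ± 24.6 CPM (SD, n = 3), and its change of 0.17 missed the threshold (edgeR adjusted p = 0.108) but passed at 0.24 with GC offsets (edgeR adjusted p = 0.0191).

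Cldn23, found in differentiated surface epithelium, was the scarcest of the 9. Control libraries held 4.99, 3.33 and 8.23 CPM and RANKL libraries 7.86, 8.02 and 7.85 CPM. One control library lay above all RANKL libraries, so the groups overlapped. The log2 change of 0.61 (SE 0.25) passed narrowly (edgeR adjusted p = 0.0492). With GC offsets it was 0.7 (edgeR adjusted p = 0.0164). The call also held with a block for replicate number (edgeR adjusted p = 0.0407) and with both (0.0107). Of 16 alternatives, 8 kept the call and 8 lost it. The call was lost with DESeq2 (adjusted p = 0.101), with limma on the deposited log2 values (0.0527) and with upper-quartile factors (0.0531). It was also lost when any of 5 libraries was left out. Leaving out ENR control replicate 3 instead gave 0.96, and leaving out ENR control replicate 2 gave 0.28. The change in Cldn23 is therefore not firm at 25 to 71 counts per library.

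Occludin RNA did not pass the test: Ocln was at 116, 133 and 104 CPM in control libraries and 110, 124 and 125 CPM with RANKL (log2 change 0.01, SE 0.0958, edgeR adjusted p = 0.909). With GC offsets it was lower by a log2 change of -0.31 (edgeR adjusted p = 0.00195). Tjp1 stood at 197, 192 and 193 CPM in control libraries and at 220, 243 and 275 CPM with RANKL, so the groups did not overlap. It rose by 0.34 (SE 0.0879, edgeR adjusted p = 0.00353), and by 0.24 with GC offsets. Tjp3 was at 258, 201 and 277 CPM against 210, 185 and 171 CPM. Its fall of -0.37 (SE 0.111, edgeR adjusted p = 0.0094), with 1 control library inside the RANKL range, was lost with GC offsets (-0.11, adjusted p = 0.282) and without RANKL replicate 3 (-0.31, adjusted p = 0.0568).

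**Figure D1:**
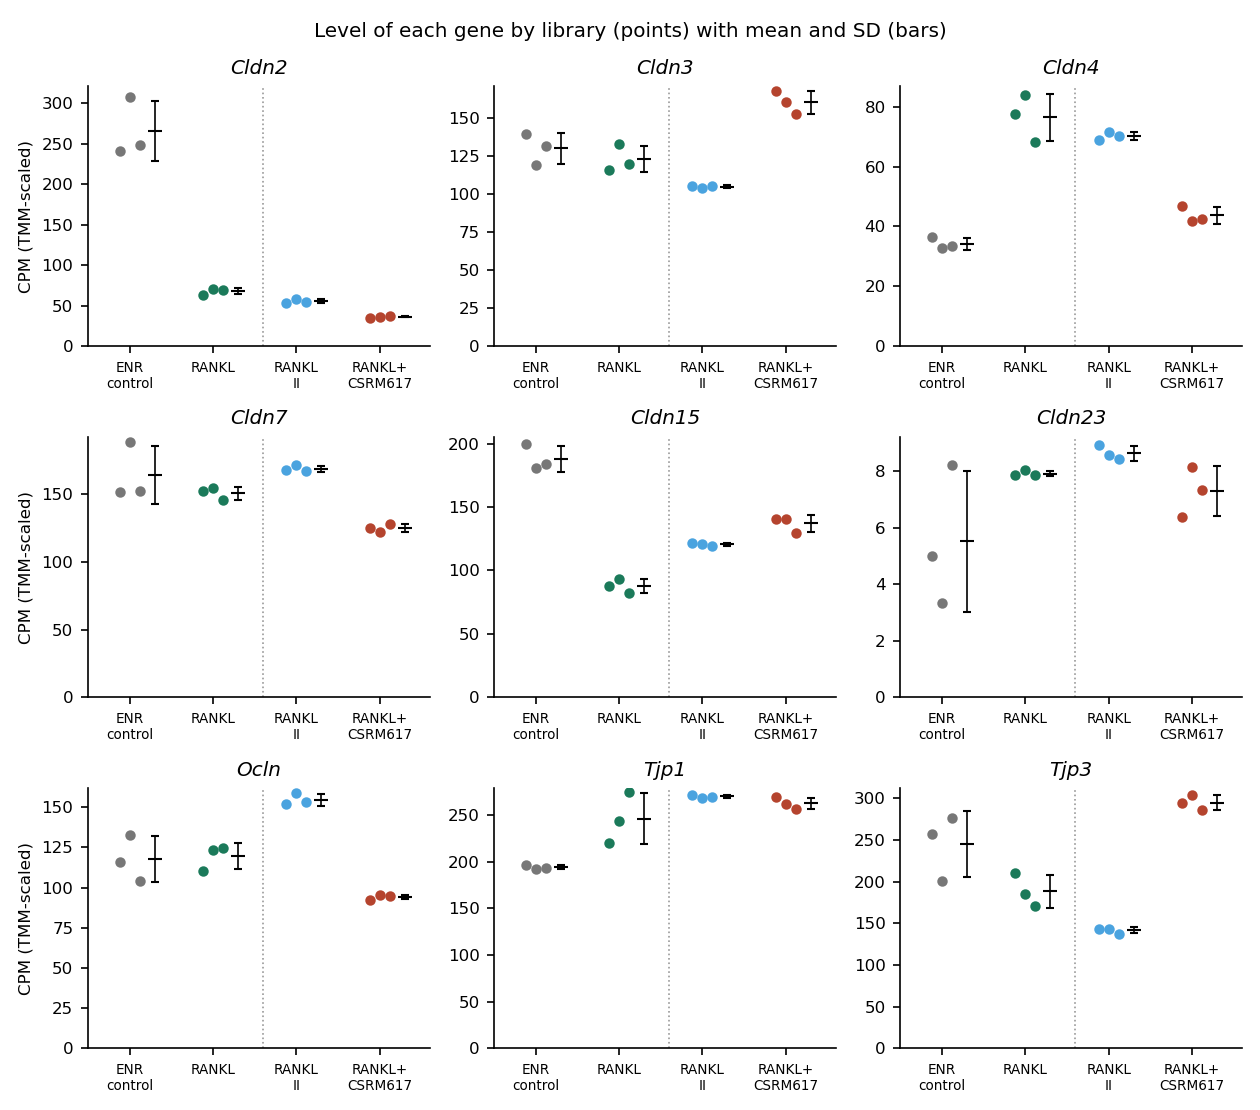
Level of each of the 9 genes in CPM after TMM scaling (y axis, from 0) in the 4 groups (x axis), with 1 point per library and the mean ± SD beside them; the dotted line separates the 2 tables, which were scaled separately. On the left of the line Cldn2 is highest in ENR control at 241 to 308 CPM, and Cldn4 is higher in RANKL than in ENR control on the left and higher in RANKL II than in RANKL+CSRM617 on the right.

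The second comparison asked what CSRM617 changed in organoids that also received RANKL. Of the 9 genes, 3 rose (Tjp3, Cldn3 and Cldn15), 4 fell (Ocln, Cldn4, Cldn2 and Cldn7) and 2 did not pass (Tjp1 and Cldn23). Over all 14167 genes tested, 71.4% passed, 35.2% rising and 36.2% falling, so passing was again near the background. Several replicates here differed little more than counting error, for which chi-square per degree of freedom is 1: it was 1.09 to 1.39 between RANKL II libraries and 1.16 between RANKL+CSRM617 replicates 1 and 2, but 4.07 to 4.68 between the third and these. The small p-values below thus rest on a spread that may be partly technical. The groups did not overlap in 8 of the 9 genes, against 73.1% of all genes. The median log2 change of the 9 was -0.23, against -0.02 over all genes. With GC offsets 3 rose and 5 fell, beside 63.4% of all genes that passed, 34.9% higher and 28.5% lower. The calls of Tjp3, Cldn3, Cldn4, Cldn2, Cldn7 and Ocln held there in the same direction, and that of Cldn15 was lost.

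Tjp3 encodes a scaffold of the zonula occludens family. RANKL II libraries held 144, 144 and 138 CPM and RANKL+CSRM617 libraries 295, 304 and 286 CPM. The groups were far apart. The log2 change was 1.06 (SE 0.0342, edgeR adjusted p = 7.69e-29), or 2.08-fold, and 0.59 with GC offsets (SE 0.0295, edgeR adjusted p = 4.62e-60). Genes within 2 percentage points of its GC content of 60.8% had a median change of 0.52 over 848 genes. Tjp1 did not follow: it was at 272, 269 and 269 CPM against 269, 262 and 257 CPM, and its change of -0.04 did not pass (SE 0.0307, edgeR adjusted p = 0.236). It passed as lower with upper-quartile factors (-0.08, edgeR adjusted p = 0.0157) and with a stricter filter on low counts (-0.07, 0.0422), and as higher with GC offsets (0.12, 2.27e-05), so no direction can be given. Counts of Tjp3 per count of Tjp1 were 0.529, 0.535 and 0.511 in RANKL II and 1.10, 1.16 and 1.11 in RANKL+CSRM617. The transcripts of Tjp3 and Tjp1 have 60.8% and 46.8% GC, and with GC offsets their changes were 0.59 and 0.12. The part of GC content in this ratio was not tested.

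Cldn4 was lower with the compound. It stood at 68.7, 71.4 and 70.2 CPM in RANKL II and 47.0, 41.8 and 42.5 CPM in RANKL+CSRM617. All 3 libraries with CSRM617 were below all 3 without it. The log2 change was -0.69 (SE 0.0555, edgeR adjusted p = 7.35e-15), and -1.02 with GC offsets. Its neighbour Cldn3 went from 105, 104 and 106 CPM to 168, 161 and 153 CPM and so rose by 0.61 (SE 0.0392, edgeR adjusted p = 4.53e-18). After GC offsets the rise of Cldn3 was 0.08 (edgeR adjusted p = 0.0497), and 338 genes of like GC content had a median change of 0.56.

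The ratio of the 2 neighbours does not depend on library scaling. In ENR control there were 0.261, 0.274 and 0.254 counts of Cldn4 per count of Cldn3, and with RANKL 0.666, 0.630 and 0.568. In RANKL II there were 0.652, 0.686 and 0.665, and in RANKL+CSRM617 0.280, 0.260 and 0.278. Within each table the groups were apart, and the log2 ratio changed by 1.24 with RANKL and by -1.29 with CSRM617. An exact two-sided permutation test of each gave p = 0.1, the smallest that 3 against 3 libraries allow, and 0.125 after Benjamini-Hochberg adjustment over 10 ratio comparisons. The transcript of Cldn3 has 62.8% GC and that of Cldn4 56.8%, so the ratio may still carry part of a difference in GC response. With GC offsets Cldn4 and Cldn3 changed by 1.29 and 0.27 with RANKL, and by -1.02 and 0.08 with CSRM617. The ratio itself was not tested with offsets.

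**Figure D2:**
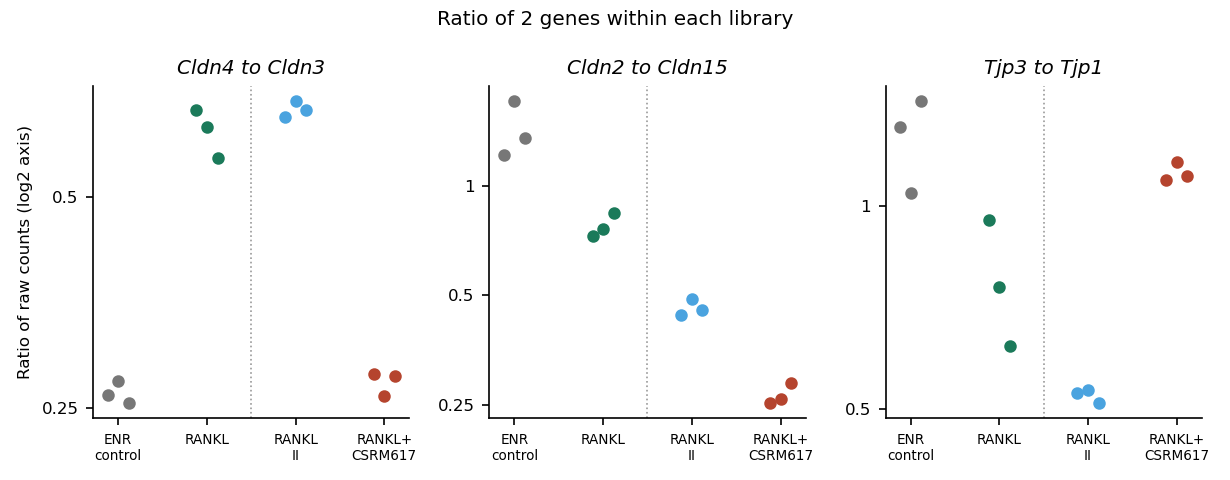
Ratio of the raw counts of 2 genes within each library (log2 y axis) for Cldn4 to Cldn3, Cldn2 to Cldn15 and Tjp3 to Tjp1 in the 4 groups (x axis), with 1 point per library; the dotted line separates the 2 tables. Cldn4 to Cldn3 is 0.254 to 0.274 in ENR control and 0.260 to 0.280 in RANKL+CSRM617, and 0.568 to 0.686 in the RANKL and RANKL II libraries. The ratios are not adjusted for GC content.

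Cldn2 fell with CSRM617 too, from 54.0, 59.0 and 54.3 CPM in RANKL II to 35.6, 36.7 and 37.4 CPM. The log2 change was -0.60 (SE 0.0595, edgeR adjusted p = 2.97e-12), and -0.56 with GC offsets. The summed crypt stem cell markers were 230 to 240 CPM in RANKL II and 270 to 271 CPM in RANKL+CSRM617. Of the 6, 3 rose and 2 fell by the edgeR test, and their part in the fall of Cldn2 was not tested. Cldn15 was slightly higher, at 122, 121 and 119 CPM against 141, 141 and 130 CPM (log2 change 0.18, SE 0.0393, edgeR adjusted p = 6.59e-05), a rise absent with GC offsets (-0.03, adjusted p = 0.416). The ratio of Cldn2 to Cldn15 went from 0.443, 0.490 and 0.455 to 0.253, 0.261 and 0.288. The transcripts of Cldn2 and Cldn15 have 48.8% and 54.1% GC, and the part of GC content in this ratio was not tested.

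Cldn7 was at 168, 171 and 167 CPM in RANKL II and 125, 122 and 128 CPM with CSRM617, again without overlap. It fell by 0.43 (SE 0.0364, edgeR adjusted p = 2.66e-14), and by 0.77 with GC offsets. Its binding partner Epcam fell as well, from 749 ± 16.3 to 600 ± 9.23 CPM (log2 change -0.32, edgeR adjusted p = 1.16e-14). Cldn23 was at 8.91, 8.55 and 8.41 CPM against 6.38, 8.14 and 7.34 CPM, a change of -0.23 (SE 0.13, edgeR adjusted p = 0.119) below the threshold only once GC offsets were used (-0.47, edgeR adjusted p = 8.75e-04).

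Ocln fell from 152, 159 and 153 CPM to 92.6, 95.5 and 94.6 CPM, with every CSRM617 library lower. The log2 change was -0.71 with SE 0.0387 (edgeR adjusted p = 1.32e-20). It has the lowest GC content of the 9, and 2008 genes of like GC content had a median of -0.51; with GC offsets its change was -0.17 (SE 0.036, edgeR adjusted p = 7.45e-06). The 8 enterocyte markers summed to 3416 to 3472 CPM in RANKL II and 8422 to 8729 CPM in RANKL+CSRM617, with all 8 higher by the edgeR test. The 10 M cell markers summed to 1121 to 1144 and 1082 to 1109 CPM, a near level sum in which 4 of 9 tested rose and 5 fell. The 6 Paneth cell markers went from 552 to 565 CPM to 845 to 869 CPM, with 5 higher and 1 lower, and the 7 goblet cell markers from 2817 to 2896 CPM to 3795 to 3971 CPM, with 4 higher and 3 lower. The part of any of these in the changes of the 9 genes was not tested.

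**Figure D3:**
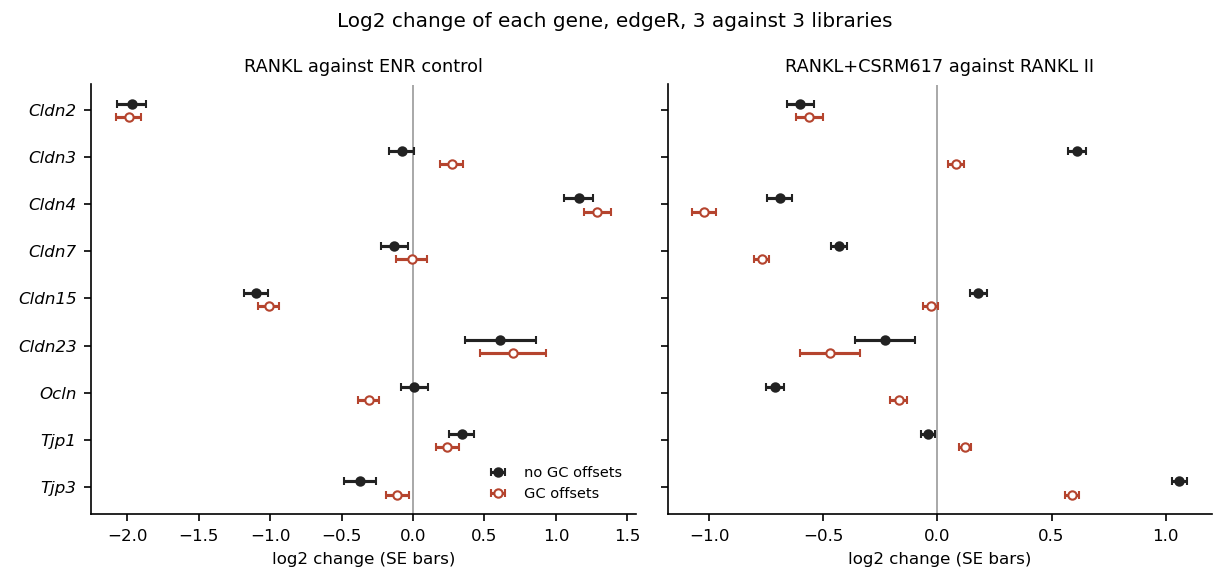
Log2 change of each gene (x axis) with its SE in RANKL against ENR control (left) and RANKL+CSRM617 against RANKL II (right), from edgeR without GC offsets (filled) and with them (open). Cldn2 at -1.97, Cldn4 at 1.16 and Cldn15 at -1.10 stand away from 0 on the left with both fits, and on the right the offsets shrink Tjp3 from 1.06 to 0.59, Cldn3 from 0.61 to 0.08 and Ocln from -0.71 to -0.17.

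Levels of different genes were compared per kb of annotated exon. In ENR control the order by CPM per kb was Cldn3 (104 ± 8.15), Cldn15 (88.4 ± 4.74), Cldn7 (84.3 ± 11), Cldn2 (80 ± 11), Tjp3 (66 ± 10.6), Ocln (27.9 ± 3.38), Tjp1 (24.9 ± 0.288), Cldn4 (18.9 ± 1.1) and Cldn23 (2.99 ± 1.35), as mean ± SD over 3 libraries. The ranges of Cldn15, Cldn7, Cldn2 and Tjp3 overlapped between neighbours, as did those of Ocln and Tjp1. With RANKL the order was Cldn3 (97.8 ± 6.97), Cldn7 (77.3 ± 2.35), Tjp3 (50.8 ± 5.39), Cldn4 (42.1 ± 4.29), Cldn15 (41.3 ± 2.54), Tjp1 (31.5 ± 3.52), Ocln (28.3 ± 1.91), Cldn2 (20.4 ± 1.16) and Cldn23 (4.28 ± 0.0528). Tjp3, Cldn4 and Cldn15 overlapped with their neighbours in that order, and so did Tjp1 and Ocln. Cldn2 thus went from the fourth to the eighth place and Cldn4 from the eighth to the fourth, or to the fifth behind Cldn15 by the length of the longest transcript.

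In RANKL II the order in CPM per kb was Cldn7 (86.7 ± 1.18), Cldn3 (83.4 ± 0.649), Cldn15 (56.8 ± 0.574), Cldn4 (38.6 ± 0.747), Tjp3 (38.2 ± 0.973), Ocln (36.6 ± 0.858), Tjp1 (34.6 ± 0.228), Cldn2 (16.8 ± 0.851) and Cldn23 (4.67 ± 0.14). The ranges of Cldn4, Tjp3 and Ocln overlapped between neighbours there. In RANKL+CSRM617 it was Cldn3 (128 ± 5.99), Tjp3 (79.4 ± 2.48), Cldn15 (64.5 ± 3.03), Cldn7 (64.2 ± 1.49), Tjp1 (33.6 ± 0.787), Cldn4 (24.1 ± 1.54), Ocln (22.3 ± 0.346), Cldn2 (11 ± 0.268) and Cldn23 (3.94 ± 0.477), and only Cldn15 and Cldn7 overlapped. The place of Cldn7 depends on the length used: by its longest transcript it stood at 123 CPM per kb in ENR control and 113 with RANKL, above Cldn3 in both.

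As shares of the 6 claudins, in counts per kb, Cldn2 made up 21.1% ± 2.39 in ENR control and 7.22% ± 0.422 with RANKL, and 5.85% ± 0.257 in RANKL II and 3.73% ± 0.198 with CSRM617 (SD, n = 3). Cldn4 made up 4.99% ± 0.35 and 14.9% ± 0.877 in the first table, and 13.5% ± 0.2 and 8.16% ± 0.354 in the second. Cldn15 went from 23.4% ± 1.5 to 14.6% ± 0.267 with RANKL, and was at 19.8% ± 0.234 and 21.9% ± 0.603 in the second table. Cldn3 was the largest share in ENR control (27.4% ± 2.69), RANKL (34.5% ± 1.09) and RANKL+CSRM617 (43.2% ± 0.774), while Cldn7 was in RANKL II (30.2% ± 0.206). In ENR control replicate 2 Cldn7 exceeded Cldn3 (24.9% and 24.4%), and by the longest transcript Cldn7 stood above Cldn3 in ENR control and RANKL as well. The 6 together summed to 378 ± 10.9 and 283 ± 15.2 CPM per kb in the first table and to 287 ± 1.95 and 295 ± 8.6 CPM per kb in the second.

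**Figure D4:**
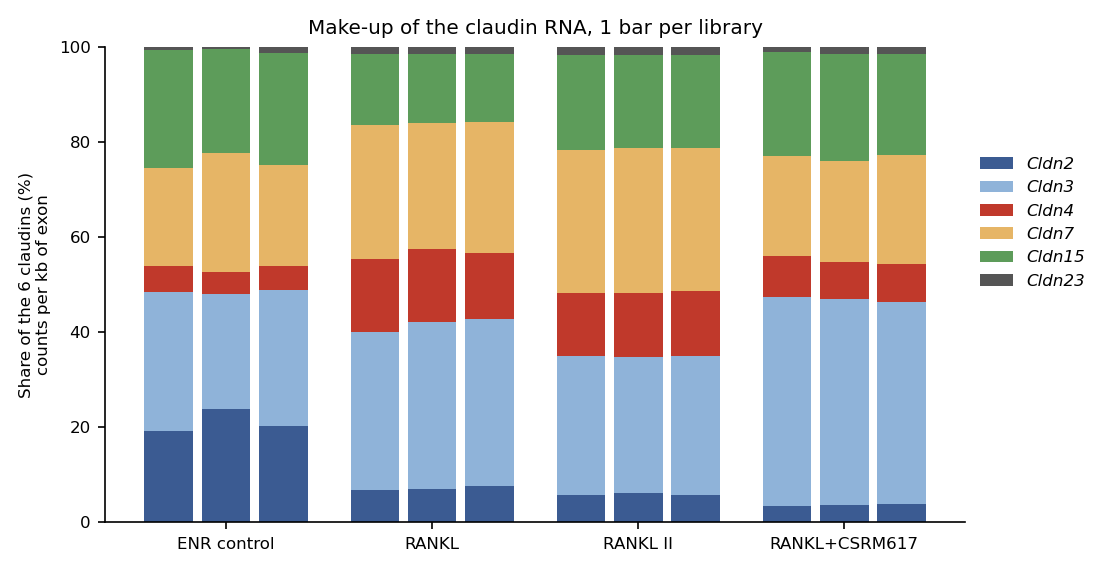
Share of each of the 6 claudins in their summed counts per kb of exon (y axis, %), with 1 stacked bar per library in the 4 groups (x axis). Cldn2 takes 19.2% to 23.8% in the ENR control libraries and 6.88% to 7.69% in the RANKL libraries, and Cldn4 takes 4.62% to 5.32% and 13.8% to 15.4%.

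The 9 genes did not move as 1 block. Over the 12 libraries, with log2 CPM centred within each table, Pearson's r was 0.87 between Cldn2 and Cldn15, 0.93 between Cldn3 and Tjp3, 0.91 between Cldn7 and Ocln, and -0.95 between Ocln and Tjp3; the points share groups, libraries and their GC response, and Cldn23 was too scarce to enter. By the same measure over 9383 genes, the genes most like Cldn2 were Lgr5, the receptor that marks crypt stem cells (r = 0.994), Ccl28 (0.993) and Cln6 (0.991). Those most like Cldn4 were AA467197 (0.99), Ly6a (0.987) and B2m (0.985). Epb41l3 (0.997), Rplp0 (0.996) and Rps19 (0.994) were nearest to Cldn15, Pcyt2 (0.998), Cux1 (0.996) and Map3k9 (0.993) to Tjp3, and Tmc6 (0.98), Ptpn23 (0.979) and Myrfl (0.976) to Cldn3. Cldn7 was most like Atp5c1 (0.983), Ocln most like Cmc1 (0.989) and Tjp1 most like Bcam (0.962).

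Most other claudins had few counts or none. Of 18 listed, 11 had 0 counts in all 12 libraries, Cldn1 and Cldn5 among them, which over 107801356 counts allows up to 0.0278 CPM and covers counting error only. Another 6 had 6 to 24 counts in all and did not pass the filter on low counts. Of these, 3 are named after their values were seen. Cldn8 had 6, 9 and 5 counts in ENR control and 1, 0 and 1 with RANKL, a ratio per total of 14.7 with an interval of 3.57 to 130 that covers counting error only. Cldn20 had 2, 2 and 2 counts against 0 in every RANKL library, and Cldn9 the reverse, with 0 in every control library and 6, 5 and 0 counts with RANKL. In an edgeR fit without the filter these 3 passed with RANKL (adjusted p = 5.18e-05 for Cldn8, 0.0182 for Cldn20 and 0.0118 for Cldn9). Counts this low do not bear a firm statement. Cldn12 alone passed the filter. Its change with RANKL did not reach the threshold (35.1 ± 4.93 and 31.7 ± 1.38 CPM, edgeR adjusted p = 0.239). With GC offsets Cldn12 was lower by a log2 change of -0.37 (edgeR adjusted p = 0.00436). It fell with CSRM617 from 40 ± 2.18 to 20.6 ± 1.59 CPM (log2 change -0.95, SE 0.0725, edgeR adjusted p = 1.22e-15), or -0.62 with GC offsets.

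Among the other strand proteins (tricellulin and its relatives, the angulins and the JAM family), 4 of 7 tested genes rose with RANKL and none fell, or 1 fell without ENR control replicate 2. Cxadr, an adhesion molecule of the junction, rose by 1.35, F11r, which encodes JAM-A, by 1.05, the angulin gene Ildr1 by 1.01 and Lsr, another angulin, by 0.46 (edgeR adjusted p = 2.62e-08, 2.08e-08, 2.86e-05 and 0.000188). With CSRM617, 3 rose and 2 fell of 7, or 1 rose and 3 fell with GC offsets, and 1 fell with DESeq2. Cxadr fell from 309 ± 2.56 to 139 ± 8.32 CPM (log2 change -1.15, SE 0.0353, edgeR adjusted p = 1.29e-29), and by 0.61 with GC offsets. Like Cldn4, it rose with RANKL and fell with the compound. The list medians were 0.46 and 0.11, beside 0.00 and -0.02 over all genes. As background to the calls, 28.7% of all genes passed upward and 28.0% downward in the first comparison. In the second, these shares were 35.2% and 36.2%.

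Scaffold and polarity genes gave 4 higher and 6 lower of 21 tested with RANKL (median -0.12), and 15 higher and 4 lower with CSRM617 (median 0.24; 12 and 5 with GC offsets). The shares over all genes were 28.7% higher and 28.0% lower with RANKL, and 35.2% and 36.2% with CSRM617. Amot fell by 0.70 with RANKL, and Mpp5, which encodes the polarity scaffold PALS1, rose by 0.76, or by 0.32 with GC offsets (edgeR adjusted p = 1.57e-06 and 8.85e-06 without them). With CSRM617, Cgn, which encodes cingulin, rose from 206 ± 9.11 to 439 ± 9.91 CPM (log2 change 1.09, SE 0.0319, edgeR adjusted p = 2.41e-30), Tjap1 by 1.04 (0.64 with GC offsets) and Patj by 0.51.

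Claudin partners and junction regulators gave 9 higher and 3 lower of 15 with RANKL (median 0.23, with 5 lower once ENR control replicate 2 was left out) and 10 higher and 5 lower with CSRM617 (median 0.36; 11 and 3 with GC offsets). Beside them, 28.7% of all genes were higher and 28.0% lower with RANKL, and 35.2% and 36.2% with CSRM617. Mylk, which encodes the myosin light chain kinase that contracts the junctional actin ring, rose with RANKL from 15.3 ± 2.82 to 383 ± 23.8 CPM (log2 change 4.66, SE 0.117, edgeR adjusted p = 1.93e-13). Wnk4, a kinase that acts on claudins, fell by 2.11 (SE 0.141, edgeR adjusted p = 2.08e-08), and the membrane proteases Prss8 and St14 fell by 0.66 and 0.50. With CSRM617, the myosin gene Myh14 rose by 1.31 (edgeR adjusted p = 1.34e-32; 0.84 with GC offsets) and Mylk by 0.36 (0.16 with GC offsets).

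Adherens junction and desmosome genes gave 7 higher and 2 lower of 15 with RANKL (median 0.10) and 7 in each direction with CSRM617 (median 0.06). For these and the transcription factors below, the all-gene shares were 28.7% higher and 28.0% lower with RANKL. They were 35.2% and 36.2% with CSRM617. Cdh1, which encodes E-cadherin, was at 723 ± 50 and 735 ± 38.7 CPM with RANKL (edgeR adjusted p = 0.824), while Nectin1 and Nectin2 rose by 1.29 and 1.19. With CSRM617, Dsp, which encodes desmoplakin, rose by 0.76 and Dsc2, a desmosomal cadherin, fell by 0.67 (-0.18 with GC offsets). Among transcription factors, 5 rose and 4 fell of 13 tested with RANKL, and 10 rose and 2 fell of 14 with CSRM617 (6 and 5 with GC offsets). Vdr, the vitamin D receptor, known as a regulator of Cldn2, fell with RANKL from 476 ± 4.49 to 145 ± 11.4 CPM (log2 change -1.71, SE 0.082, edgeR adjusted p = 9.95e-11). It did not pass with CSRM617 (137 ± 1.93 and 134 ± 1.99 CPM, edgeR adjusted p = 0.461). There it was lower by a log2 change of -0.17 with GC offsets (edgeR adjusted p = 2.84e-06). Cldn2 fell in both comparisons, and the part of Vdr in its changes was not tested. Hnf4a, a regulator of enterocyte genes, was at 611 ± 21.4 and 618 ± 17.4 CPM in the first comparison and rose by 0.52 in the second, or by 0.33 with GC offsets (edgeR adjusted p = 0.873 and 1.06e-21 without them).

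**Figure D5:**
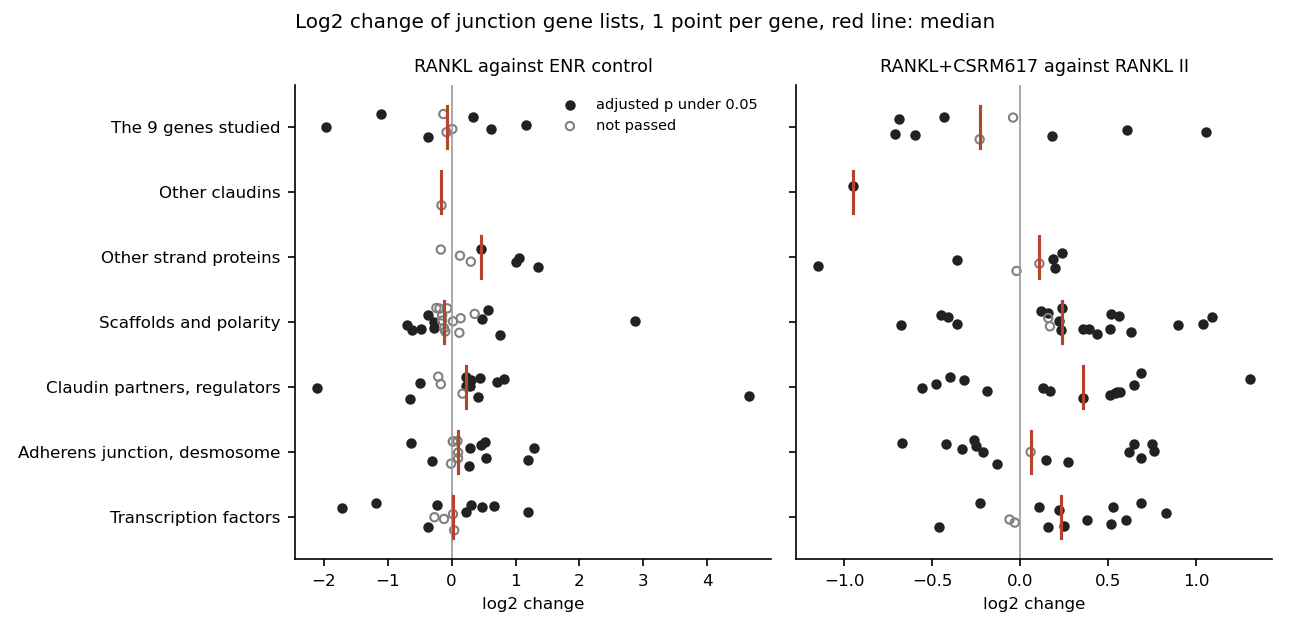
Log2 change of each tested gene (x axis) of the 7 junction and transcription factor lists (y axis; cell type markers are not drawn) in RANKL against ENR control (left) and RANKL+CSRM617 against RANKL II (right), filled where the edgeR adjusted p was under 0.05, with the list's median as a red line. Mylk at 4.66 lies farthest to the right on the left panel, and Cxadr at -1.15 farthest to the left on the right panel, among the genes drawn.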

How the data were processed

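The authors deposited raw counts per gene symbol in 2 tables, 1 for each comparison, and 2 normalized tables, whose values the files show to be on a log2 scale. Per the submitters' processing notes, STAR, HTSeq 0.13.5 and DESeq2 1.34.0 were used with mm10 (GRCm38); no source used here names the annotation or strand setting, so the 40 exon bases that Cldn3 shares with Wbscr25 and the 40 that Tjp3 shares with Apba3, both on the opposite strand, may mix reads. Libraries were read as 42-bp pairs, per the labels.

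Counts were tested with edgeR 4.0.16 (quasi-likelihood, robust, TMM, filterByExpr) in R 4.3.3, within each table and over all genes; SE is the log2 change over the square root of F. GENCODE M21 (GRCm38) gave exon lengths, GC content of the longest coding transcript and overlaps; 53543 of 55335 entries matched. GC offsets used a natural spline (5 degrees of freedom) per library. The scripts were tested on simulated data. Alternatives used DESeq2 1.42.0 and limma 3.58.1. Replicates of every group differed by more than sampling noise (chi-square per degree of freedom 1.09 to 33.2). It was lowest in RANKL II, whose libraries differed little more than counting error, and highest in the pairs with ENR control replicate 2. No label gives a batch beyond the replicate number, so no block entered the reported fits. Same-numbered libraries correlated weakly but positively, and fits with a replicate block are among the alternatives.

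The members and the lists were chosen with earlier results of these data known. All 9 members are named; from other lists, genes were named by smallest adjusted p (up to 6) or highest level (up to 2), and likeness gave 3 genes a member, of which all or the first are printed. Epcam in both comparisons, Vdr with CSRM617 and the scarce claudins lie outside this rule and were chosen after their values were seen.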

Additional observations from a re-analysis of the deposited data

How the results depend on the processing

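Each member's change was recomputed under 16 alternatives per comparison (scaling, tool, filters, input table, replicate block, GC offsets, no ribosomal or mitochondrial genes, each library left out). Of 288 values, 259 kept direction and side of the threshold. With the direction kept, 11 lost the call and 4 gained one. The other 14 changed sign, and some of these also crossed the threshold. With GC offsets, Cldn3 and Ocln with RANKL and Tjp1 with CSRM617 gained a call in this way, and Cldn15 with CSRM617 lost its call. For Ocln with RANKL the log2 change became -0.0031 with upper-quartile factors, -0.31 with GC offsets, with or without the replicate block, and -0.07 to 0.10 when 1 library was left out. Cldn3 became 0.27 with GC offsets and 0.28 with the block added, and Cldn7 became 0.01 with both. With CSRM617, GC offsets turned Cldn15 to -0.03 and Tjp1 to 0.12, with or without the block. The cause was not tested. The members called with RANKL numbered 2 to 3 higher and 2 to 3 lower without any 1 library.

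No label says that a replicate number marks a shared batch or day. Same-numbered libraries correlated at 0.028 to 0.124 with RANKL and 0.0215 to 0.0578 with CSRM617. Each was positive. Each RANKL II library correlated best with its own number, and so did each ENR control library except replicate 1, whose value was 0.0301 with RANKL replicate 3. Values this weak do not establish a pairing, and the design gives none. With the replicate block 3893 genes were higher and 3808 lower with RANKL, and 4977 and 5118 with CSRM617, against 3897, 3802, 4980 and 5134 without it. Exon length by the longest transcript, chosen after seeing the data, changed the order of levels for Cldn7 and for several neighbours: Cldn4 and Cldn15 with RANKL, Cldn4, Tjp3, Ocln and Tjp1 in RANKL II, and Cldn15 with CSRM617. Depth limits Cldn23 and the scarce claudins.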
